A study of Rattus norvegicus with 36 samples.

Results

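The cytosolic glutathione transferases described here were 10 rat genes of 4 classes: Gsta1, Gsta3 and Gsta4 of the alpha class, Gstm1, Gstm2 and Gstm4 of the mu class, Gstt1, Gstt2 and Gstt3 of the theta class, and Gstp1 of the pi class. They were taken as every probe set that the platform annotation lists under one of these symbols. This gave 10 of 14217 genes with a probe set of their own and 11 of 31042 probe sets tested, 1 for each gene and a second one for Gstt2. All 11 had a value on every array.

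The samples were left liver lobe of male Harlan Sprague Dawley rats, 7 weeks old when dosing began, which received hexabromocyclododecane (HBCD), a brominated flame retardant used in polystyrene foam. HBCD was given in corn oil by gavage on 5 consecutive days, at 5 ml per kg, and RNA was taken 1 day after the last dose. There were 6 groups of 6 arrays. They received corn oil alone (the vehicle, which every group received), or HBCD at 0.06 mg/kg, 0.641 mg/kg, 6.41 mg/kg, 64.1 mg/kg or 641 mg/kg. Nothing in the labels says whether the numbered replicates of a group are separate rats. The p-values therefore cover only the variation among these samples, part of which may be technical.

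Glutathione transferases join the tripeptide glutathione to reactive, electron-seeking chemicals and to products of lipid peroxidation, and several also reduce organic peroxides. Hepatocytes hold large amounts of the alpha and mu classes, and the conjugates leave the cell through membrane exporters. Several alpha and mu genes are known in rodents as targets of the oxidant-sensing factor Nrf2 and of the xenobiotic receptors CAR and PXR. The pi-class enzyme is scarce in normal rat hepatocytes and is a classical marker of preneoplastic foci in rat liver.

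The 4 promoter windows below are shown because they belong to the gene with the largest response (Gsta3), its neighbour on the chromosome with a much smaller one (Gsta1), the gene with the next largest response (Gstt3), and the pi-class gene, which was not called at any dose (Gstp1). They come from RefSeq on assembly GRCr8, run 5′ to 3′ over 250 bases before the annotated start and 50 bases from it, and lie as follows: Gsta3 at chr9:31154739-31155038 on the plus strand, Gsta1 at chr9:31216483-31216782 on the minus strand, Gstt3 at chr20:12874368-12874667 on the plus strand and Gstp1 at chr1:210769656-210769955 on the minus strand. Capitals mark matches to the core of the antioxidant response element, the site bound by Nrf2, searched as TGACNNNGC on both strands.
Gsta3: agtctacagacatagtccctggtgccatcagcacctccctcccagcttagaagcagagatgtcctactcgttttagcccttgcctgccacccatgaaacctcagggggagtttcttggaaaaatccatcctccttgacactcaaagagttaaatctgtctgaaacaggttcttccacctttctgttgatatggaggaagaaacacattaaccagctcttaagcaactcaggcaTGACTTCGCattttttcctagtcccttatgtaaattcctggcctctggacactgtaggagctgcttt
Gsta1: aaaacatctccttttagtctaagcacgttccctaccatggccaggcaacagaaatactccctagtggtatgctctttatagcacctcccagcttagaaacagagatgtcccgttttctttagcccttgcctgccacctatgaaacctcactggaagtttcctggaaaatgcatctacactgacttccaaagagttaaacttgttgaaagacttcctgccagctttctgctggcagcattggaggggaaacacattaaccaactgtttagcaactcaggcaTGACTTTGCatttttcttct
Gstt3: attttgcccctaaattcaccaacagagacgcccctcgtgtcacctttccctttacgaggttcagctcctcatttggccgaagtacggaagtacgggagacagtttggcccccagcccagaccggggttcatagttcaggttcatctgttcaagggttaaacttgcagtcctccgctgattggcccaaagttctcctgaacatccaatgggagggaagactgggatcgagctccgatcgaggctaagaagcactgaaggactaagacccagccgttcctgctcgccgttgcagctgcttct
Gstp1: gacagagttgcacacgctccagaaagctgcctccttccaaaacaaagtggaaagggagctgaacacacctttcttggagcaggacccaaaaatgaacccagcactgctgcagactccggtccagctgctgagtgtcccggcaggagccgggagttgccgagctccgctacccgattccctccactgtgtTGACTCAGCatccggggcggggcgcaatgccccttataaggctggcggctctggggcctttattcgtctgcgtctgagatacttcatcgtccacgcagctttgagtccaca

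Promoter windows were found for 8 of the genes, 9 windows in all. Of these 9 windows, 3 held this core, against 12.1% of all 33469 windows of the same length. Positions count from the annotated start as +1. The match stood at -17 to -9 in Gsta3 (TGACTTCGC), at +31 to +39 in Gsta1 (TGACTTTGC) and at -61 to -53 in Gstp1 (TGACTCAGC), where it overlapped an AP-1 site searched as TGACTCA. The Gsta3 and Gsta1 windows aligned over 243 bases, of which 197 were identical (76.4% with gaps counted), and their matches stood opposite each other. They differed by 1 substitution, C7T, counted from the 5′ end of the Gsta3 match and read from Gsta3 to Gsta1. The second window of Gsta3 and the windows of Gsta4, Gstm1, Gstm2, Gstm4 and Gstt3 did not hold these letters. Other motifs were searched on both strands too. The xenobiotic response element core GCGTG was found in 4 of the 9 windows (the second of Gsta3, and those of Gsta4, Gstm4 and Gstp1) and in 29.7% of all windows. The nuclear receptor half-site AGGTCA was found in Gstm1 and in 16.2% of all windows, and its variant AGTTCA in the second window of Gsta3, in Gsta4 and in Gstt3 and in 14.5% of all windows. No promoter window was found for Gstt1 or Gstt2.

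All values below are log2 expression levels per probe set as deposited, and folds are differences between group means on that scale, turned into ratios. The array medians lay between 4.83 and 4.90, replicates of 1 group had correlations between 0.991 and 0.997, and no 2 arrays were identical. Most hepatocyte markers were bright, as for albumin, whose mean was 14.54 at 641 mg/kg and 14.53 in vehicle livers. Tat was dimmer, with means of 8.70 and 9.18. None of 8 hepatocyte markers was called at 641 mg/kg, but 4 were lower and 0 higher at an unadjusted limma p under 0.05. Tat had the lowest ratio, at 0.717 times its vehicle level. The summed log2 level of the 8 markers was 102.6 to 103.6 at 641 mg/kg, against 103.8 to 104.6 in vehicle livers, without overlap. None was called among 5 cholangiocyte markers (summed level 25.4 to 27.4 at 641 mg/kg, against 25.4 to 26.1 in vehicle livers), 6 macrophage, 6 stellate cell and fibroblast, 3 endothelial, 3 neutrophil or 2 erythroid markers. At the unadjusted threshold 1 cholangiocyte marker was higher. There, 1 stellate cell and fibroblast, 1 endothelial, 1 neutrophil and 2 lymphocyte markers were lower. The shares of all probe sets higher or lower at this unadjusted threshold are not given here. Among 4 lymphocyte markers only Cd8a was called, at 0.633 times its vehicle level (limma adjusted p = 0.0176), by its brightest probe set. The other two Cd8a probe sets were not called, at 0.878 (adjusted p = 0.628) and 0.952 times (0.824) their vehicle levels. The part of these shifts in the results below was not tested. In whole liver, a change in the cells present and a change in RNA per cell cannot be told apart. The number of arrays limits the precision. The files hold no detection calls.

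At 641 mg/kg, 7 of the 11 probe sets rose against vehicle and none fell, at a limma p adjusted over all probe sets under 0.05. Over all probe sets, 1.13% were called higher and 0.512% lower. By class, 3 of 3 alpha, 2 of 3 mu, 2 of 4 theta and 0 of 1 pi probe sets were called. The theta count and the theta median below include both Gstt2 probe sets, of which 1396468 was dim, at a log2 fold change of -0.04. In 8 of 11, every array at 641 mg/kg lay above every vehicle array, against 1.06% of all probe sets. Over the member probe sets only, the median log2 fold change was 0.59 for alpha, 0.52 for mu, 0.29 for theta and 0.23 for pi. Over all probe sets it was -0.00730. Further mu and pi genes, which these class values leave out, are given below. The plot of each array's level by dose shows these groups.

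**Figure D1:**
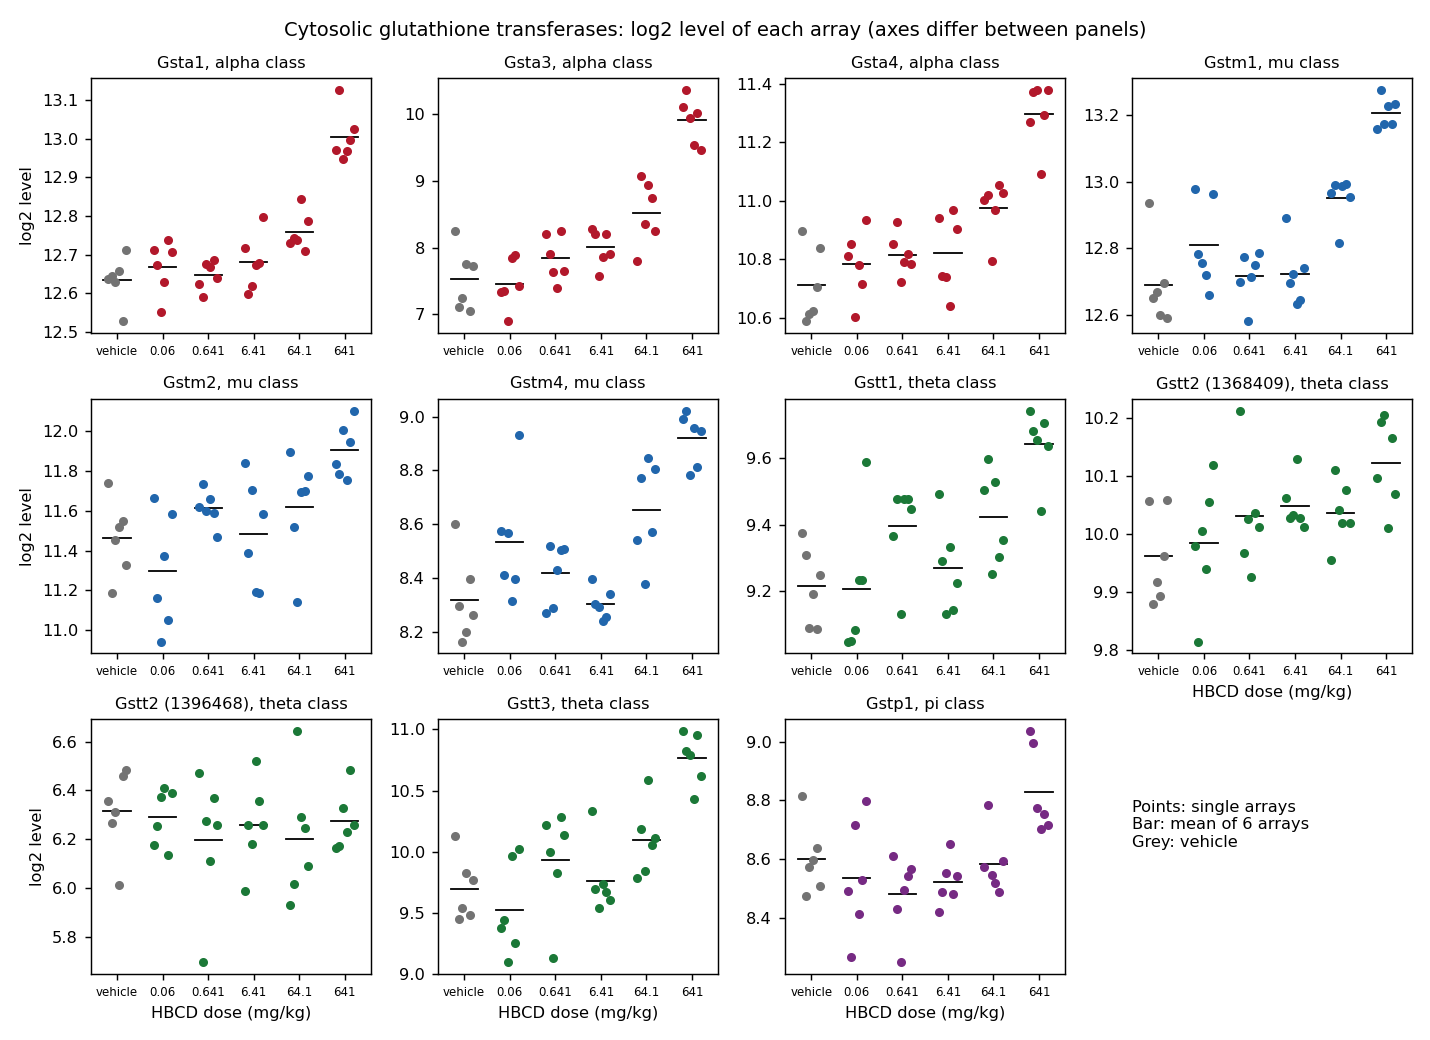
Log2 level of each member probe set on every array, by HBCD dose in mg/kg with vehicle at the left. Points are single arrays, bars are means of 6, grey is vehicle, and each panel has its own axis. All arrays at 641 mg/kg lie above all vehicle arrays in 8 of the 11 panels, and Gsta3 has the widest span.

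Gsta3, an alpha-class enzyme whose human counterpart isomerises steroid hormone precursors, had the largest response. Its level (lowest, median and highest of 6 arrays) was 7.05, 7.48 and 8.25 in vehicle livers, 6.89, 7.38 and 7.89 at 0.06 mg/kg, 7.40, 7.78 and 8.24 at 0.641 mg/kg, 7.57, 8.05 and 8.28 at 6.41 mg/kg, 7.80, 8.55 and 9.07 at 64.1 mg/kg and 9.46, 9.985 and 10.36 at 641 mg/kg. The 641 mg/kg arrays stood clear of all other groups, while every neighbouring pair of lower groups overlapped. The highest vehicle value, 8.25, came from replicate 1. At 641 mg/kg Gsta3 was 5.23-fold higher than in vehicle livers (95% interval 3.90 to 7.00, limma adjusted p = 9.92e-10). At 64.1 mg/kg it was 2.00-fold its vehicle level (interval 1.49 to 2.68), with an adjusted p of 0.0502 that did not pass. There, 4 of 6 arrays lay above the highest vehicle array. That adjusted p lay between 0.00791 and 0.274 with single arrays left out, and passed without vehicle replicate 1 (0.00791) or 64.1 mg/kg replicate 1 (0.0104). Under the other settings it lay between 0.0234 and 0.516.

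Gsta1, a major alpha-class transferase of hepatocytes that also reduces organic hydroperoxides and binds bilirubin and haem, moved by a small but even amount. Its lowest, median and highest levels were 12.95, 12.98 and 13.13 at 641 mg/kg, 12.71, 12.74 and 12.84 at 64.1 mg/kg, and 12.53, 12.64 and 12.71 in vehicle livers. The 641 mg/kg group lay wholly above both others. The spread of the vehicle arrays (SD 0.0599) was lower than that of most probe sets, whereas the vehicle SD of Gsta3 was 0.469. Gsta1 was 1.29-fold higher at 641 mg/kg (interval 1.22 to 1.37, adjusted p = 3.82e-07) and 1.09-fold its vehicle level at 64.1 mg/kg (adjusted p = 0.666, not called). The mean levels of Gsta1 and Gstm1 stood near the top of the scale, whose highest value was 14.59, and compression of folds there was not tested.

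Gsta4, which conjugates 4-hydroxynonenal and related products of lipid peroxidation, rose by 1.50-fold at 641 mg/kg (interval 1.37 to 1.65, adjusted p = 1.98e-07). Its lowest, median and highest levels were 11.09, 11.33 and 11.38 at 641 mg/kg, 10.79, 11.01 and 11.05 at 64.1 mg/kg, and 10.59, 10.67 and 10.90 in vehicle livers. The 641 mg/kg arrays did not overlap either group, and the 64.1 mg/kg arrays overlapped vehicle through replicate 3 alone. The ratio at 64.1 mg/kg was 1.20-fold (adjusted p = 0.269, not called).

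Gstm1, the major mu-class enzyme of rat liver, which conjugates epoxides and aryl halides, was 1.43-fold higher at 641 mg/kg (interval 1.32 to 1.55, adjusted p = 2.09e-07). Its lowest, median and highest levels were 13.16, 13.20 and 13.28 at 641 mg/kg, 12.82, 12.98 and 12.99 at 64.1 mg/kg, and 12.59, 12.66 and 12.94 in vehicle livers. The highest group again stood clear, and the overlap at 64.1 mg/kg came from 1 vehicle array, replicate 1, at 12.94. The ratio at 64.1 mg/kg was 1.20-fold with an adjusted p of 0.116, and without that vehicle array the adjusted p was 0.00791. Over all single arrays left out it ran up to 0.392, and under the other settings from 0.0203 to 0.57.

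Gstm4 levels were 8.78, 8.95 and 9.02 at 641 mg/kg, 8.38, 8.67 and 8.85 at 64.1 mg/kg, and 8.16, 8.28 and 8.60 in vehicle livers (lowest, median and highest). This mu-class gene, which lies next to Gstm1, was 1.51-fold higher at 641 mg/kg (interval 1.34 to 1.71, adjusted p = 2.1e-05), with no overlap, and 1.26-fold its vehicle level at 64.1 mg/kg (adjusted p = 0.31, not called). Gstm2, whose human counterpart conjugates quinones made from dopamine, had levels of 11.75, 11.89 and 12.10 at 641 mg/kg, against 11.19, 11.49 and 11.74 in vehicle livers. Its groups did not overlap either, but its 1.36-fold ratio (interval 1.15 to 1.61) had an adjusted p of 0.0502 and was not called. Without vehicle replicate 1, which was its highest vehicle array, the adjusted p was 0.0277. Over all single arrays left out it ran up to 0.145, and under the other settings from 0.0224 to 0.207.

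Gstt3 had the next largest response after Gsta3. Its lowest, median and highest levels were 10.43, 10.81 and 10.99 at 641 mg/kg, 9.78, 10.08 and 10.58 at 64.1 mg/kg, and 9.45, 9.66 and 10.12 in vehicle livers. The 641 mg/kg arrays lay above all vehicle arrays and overlapped the 64.1 mg/kg arrays. Gstt3 was 2.10-fold higher at 641 mg/kg (interval 1.65 to 2.67, adjusted p = 0.000182) and 1.31-fold its vehicle level at 64.1 mg/kg (adjusted p = 0.775, not called). Its vehicle SD, 0.259, was wide for this table.

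Gstt1, a theta-class enzyme that dehalogenates small halogenated alkanes such as dichloromethane, was 1.35-fold higher at 641 mg/kg (interval 1.20 to 1.51, adjusted p = 0.00209). Levels were 9.44, 9.67 and 9.74 at 641 mg/kg, against 9.09, 9.22 and 9.38 in vehicle livers, without overlap. Gstt2, a theta-class enzyme with activity towards organic hydroperoxides, was read by a pair of probe sets that behaved differently from each other. Probe set 1368409 had levels of 10.01, 10.13 and 10.20 at 641 mg/kg, against 9.88, 9.94 and 10.06 in vehicle livers, a 1.12-fold ratio (interval 1.04 to 1.20, adjusted p = 0.118). Probe set 1396468 was dimmer, with levels of 6.17, 6.25 and 6.48 at 641 mg/kg, against 6.01, 6.33 and 6.49 in vehicle livers, and a ratio of 0.972 (interval 0.835 to 1.13, adjusted p = 0.94). Both sets overlapped their vehicle arrays, and neither was called at any dose.

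Gstp1, the pi-class gene, had levels of 8.70, 8.76 and 9.04 at 641 mg/kg, against 8.47, 8.59 and 8.81 in vehicle livers. Of the 6 arrays at 641 mg/kg, 2 lay above the highest vehicle array, and the groups overlapped. The ratio was 1.17-fold (interval 1.05 to 1.31, adjusted p = 0.155, not called). Its ratio at 64.1 mg/kg was 0.988 (adjusted p = 0.996). Gstp1 is also known as an enzyme of bile duct cells. The cholangiocyte marker sums given above overlapped between the groups, as did the Gstp1 levels. Any part of bile duct cells in the Gstp1 values was not tested.

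**Figure D2:**
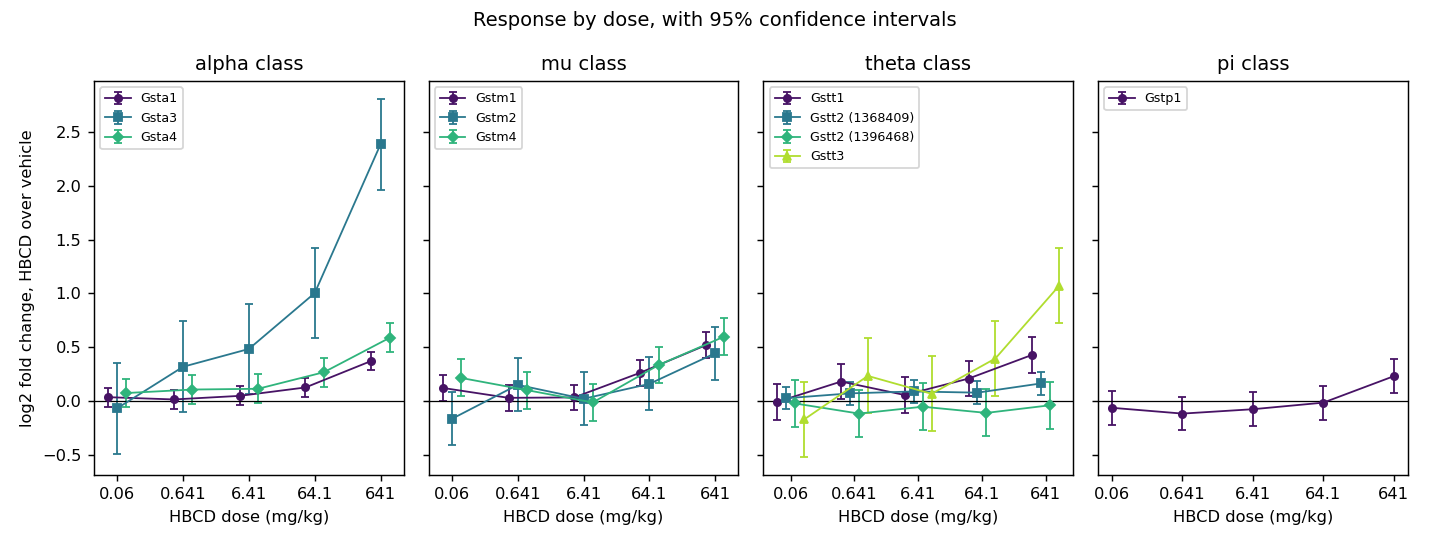
Log2 fold change of each member probe set against vehicle (vertical axis) by HBCD dose in mg/kg (horizontal axis), 1 panel per class. Points are group mean differences and bars are 95% confidence intervals. Gsta3 rises furthest, to 2.39 at 641 mg/kg, Gstt3 reaches 1.07, and the Gstp1 points at the 4 lower doses lie below 0.

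The 5 dose contrasts share the same 6 vehicle arrays. At 64.1 mg/kg, limma called 0 of the 11 probe sets, and 0.0419% of all probe sets were called higher. At an unadjusted p under 0.05, 7 of 11 were higher (3 alpha, 2 mu, 2 theta), against 3.1% of all probe sets. None of the 11 separated fully from vehicle at this dose (0.184% of all probe sets did). Most macrophage and neutrophil markers were also lower than in vehicle livers at this dose. At the unadjusted threshold, 5 of 6 macrophage markers were lower at 64.1 mg/kg, with a list median of -0.44 on the log2 scale. The share of all probe sets lower at this threshold is not given here. Clec4f was at 0.654 and Csf1r at 0.750 times their vehicle levels, whereas Cd14 was at 1.03 times. The summed macrophage level was 47.4 to 52.3 at 64.1 mg/kg, against 51.5 to 52.9 in vehicle livers, which overlap. All 3 neutrophil markers were lower too (summed level 11.27 to 12.02 at 64.1 mg/kg, against 11.43 to 13.40 in vehicle livers). S100a8 (mean 3.60 at 64.1 mg/kg) and Csf3r (2.70) were dim, below the array medians. The neutrophil markers were also below vehicle at 641 mg/kg, with S100a8 at 0.857, S100a9 at 0.814 and Csf3r at 0.862 times their vehicle levels. None of these markers passed after limma's adjustment, and their part in the members' values was not tested. Over the member probe sets, the class medians of the log2 fold change at 64.1 mg/kg were 0.27 for alpha, 0.26 for mu, 0.14 for theta and -0.02 for pi. Over all probe sets the median was 0.00321.

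At the 3 lowest doses limma called no member and 0% of all probe sets. At an unadjusted p under 0.05, 2 members were higher at 0.06 mg/kg (1.84% of all probe sets), 1 at 0.641 mg/kg (2.46%) and 1 at 6.41 mg/kg (1.99%). They were Gstm1 (1.09-fold) and Gstm4 (1.16-fold) at 0.06 mg/kg, Gstt1 (1.13-fold) at 0.641 mg/kg and Gsta3 (1.40-fold) at 6.41 mg/kg, and the limma adjusted p of each was 0.999 or 1. Each of these counts rests on 1 or 2 members.

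The step between the highest doses was tested in the same fit. At 641 against 64.1 mg/kg, 4 of 11 rose, against 0.19% of all probe sets: Gsta3 by 2.61-fold (adjusted p = 0.00041), Gsta1 by 1.19-fold (0.00294), Gsta4 by 1.25-fold (0.0184) and Gstm1 by 1.20-fold (0.0427). The same 4 did not overlap between these groups (0.412% of all probe sets). The Gstm1 call was lost on leaving out any 1 of the 12 arrays of these groups (adjusted p 0.0604 to 0.145), or vehicle replicate 3 (0.0526) or 5 (0.0517). The Gsta4 call was lost without 641 mg/kg replicate 2 (0.0722) or 3 (0.055) or 64.1 mg/kg replicate 3 (0.0756). Gstt3, at 1.60-fold, was not called (0.105), but passed without 64.1 mg/kg replicate 4 (0.0426).

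Over the 6 dose ranks, the slope of the log2 level per dose step was called upward for 8 of 11 probe sets (3 alpha, 3 mu, 2 theta), against 0.902% of all probe sets. Slopes were 0.44 for Gsta3, 0.20 for Gstt3, 0.10 for Gsta4, 0.09 for Gstm4, Gstm2 and Gstm1, 0.08 for Gstt1 and 0.06 for Gsta1. Gstm2, not called at 641 mg/kg alone, passed here (adjusted p = 0.0178). Without the 641 mg/kg group only Gsta3 kept a called slope, of 0.26 per step (adjusted p = 0.0172). The F test over all 5 doses called 7 of 11, against 0.773% of all probe sets. Means rose step by step over the 5 HBCD doses for Gsta3 and Gsta4 (1.16% of all probe sets did so), and 641 mg/kg ranked highest with 64.1 mg/kg next for 8 of 11 (5.71%).

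Whether responses differed between classes was tested within arrays, as the log2 difference between a pair of probe sets, so that only a difference in response is compared and not the levels. Each class was represented by its brightest probe set, by the mean of the 36 arrays, which does not use the dose response: Gsta1, Gstm1, probe set 1368409 of Gstt2, and Gstp1. The test speaks of these probe sets and not of whole classes. Exact two-sided permutation tests over 6 against 6 arrays were adjusted over the 6 pairs, and the smallest p they can give is 0.002165.

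Gstm1 rose more than Gstt2, since their log2 difference averaged 3.09 ± 0.09 at 641 mg/kg and 2.73 ± 0.11 in vehicle livers (SD, n = 6 each), without overlap, a difference in response of 0.36 ± 0.06 (SE, exact adjusted p = 0.0130). Gstm1 also rose more than Gstp1, by 0.29 ± 0.07 (exact adjusted p = 0.0130), and Gsta1 more than Gstt2, by 0.21 ± 0.05 (exact adjusted p = 0.0130). The other pairs did not pass: Gsta1 minus Gstm1 was -0.15 ± 0.06 (exact adjusted p = 0.0714), Gsta1 minus Gstp1 was 0.14 ± 0.08 (0.143), and Gstt2 minus Gstp1 was -0.07 ± 0.07 (0.385). Without vehicle replicate 1 the Gsta1 to Gstm1 pair passed (0.0173), and without 641 mg/kg replicate 1 the Gsta1 to Gstp1 pair passed (0.039). The choice of representative matters: with class means in place of single probe sets, alpha minus mu was 0.595, a value with no test and of opposite sign, in which Gsta3 takes part.

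**Figure D3:**
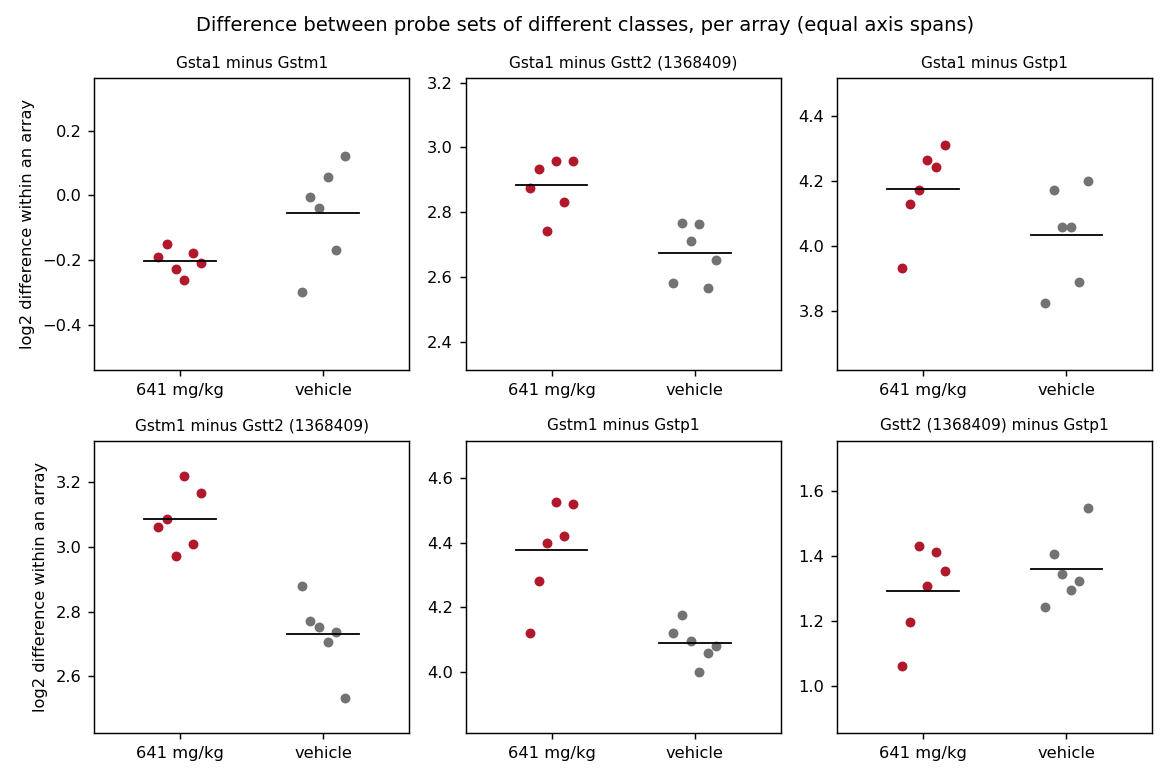
Log2 difference between a pair of member probe sets within each array (vertical axis), at 641 mg/kg HBCD (red, left) and in vehicle livers (grey, right). Points are single arrays, bars are means of 6, and all panels span the same range. The groups separate fully for Gstm1 minus Gstt2, where the means are 3.09 and 2.73.

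Responses differed within classes too. Over all 55 pairs of member probe sets, compared after the data had been seen, 39 passed the exact test after adjustment: 9 of 12 pairs within a class and 30 of 43 between classes. Gsta3 and Gstt3 each differed in response from all 10 others. In the alpha class all 3 pairs passed, and in the theta class all 6, of which 1 sets the probe sets of Gstt2 against each other. In the mu class none of 3 passed: Gstm1 minus Gstm2 was 0.08 ± 0.08 (SE, exact adjusted p = 0.399), Gstm1 minus Gstm4 was -0.08 ± 0.04 (0.122) and Gstm2 minus Gstm4 was -0.16 ± 0.11 (0.193).

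Genes next to each other on a chromosome could differ in response size. In the RefSeq gene order, Gsta3 and Gsta1 stand next to each other on chromosome 9, and the response of Gsta1 was lower by 2.02 on the log2 scale (difference -2.02 ± 0.22, exact adjusted p = 0.00476). Gstt1 and Gstt3 are neighbours on chromosome 20, and Gstt1 minus Gstt3 was -0.64 ± 0.10 (exact adjusted p = 0.00476). Gstm2, Gstm1 and Gstm4 lie in a row on chromosome 2, and these are the mu pairs that did not pass. Members of a class are close in sequence, and cross-hybridisation between their probes was not tested.

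Beyond the 10 genes, a list of other glutathione transferases had 12 genes with a probe set of their own, and limma called 1 of these 12 at 641 mg/kg, Mgst2, a membrane-bound enzyme that can make leukotriene C4. Its mean was 11.52 at 641 mg/kg and 10.82 in vehicle livers, a 1.62-fold rise (adjusted p = 6.87e-09), and it also rose at 64.1 mg/kg (1.30-fold, adjusted p = 0.00649), a call that was lost when the 64.1 mg/kg and vehicle arrays were fitted alone. A probe set listed under both Gsta5 and Gsta2, and so assigned to neither and not counted among the 12, was 1.76-fold higher at 641 mg/kg (interval 1.47 to 2.10, adjusted p = 0.000144). It was picked out after its values were seen, as was Gstp3, a pi-class neighbour of Gstp1, which had a ratio of 0.982. Further mu-class genes of the list, also picked out afterwards, were not called at 641 mg/kg. Gstm3 was at 1.32 times its vehicle level (limma adjusted p = 0.107), Gstm5 at 1.05 times (0.831) and Gstm7 at 1.13 times (0.499). The list's median log2 fold change was 0.09.

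Among 8 genes of glutathione supply, 3 rose and 1 fell at 641 mg/kg (median log2 fold change 0.14). Gsr, which regenerates reduced glutathione, rose 1.96-fold (adjusted p = 2.39e-09). The catalytic and modifier subunits of the rate-limiting enzyme of glutathione synthesis rose as well, Gclc by 1.45-fold (1.78e-06) and Gclm by 1.57-fold (2.59e-06). Cth, which makes cysteine from cystathionine, fell to 0.795 times its vehicle level (0.0089), and is named here after its values were seen, to complete the count.

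Of 6 conjugate exporters, 1 rose: Abcc3, an efflux pump of the sinusoidal membrane, which averaged 7.59 at 641 mg/kg and 5.20 in vehicle livers, a 5.26-fold rise (adjusted p = 9.92e-10). The exporter list had a median of 0.17. Of 9 genes that break down glutathione or process its conjugates to mercapturates, 1 fell, Acy3, an aminoacylase acting on mercapturates, to 0.717 times its vehicle level (0.00944), and the list's median was -0.00813. None of 6 genes of glutathione peroxide reduction was called, and the smallest p belonged to Gpx2 (1.35-fold, adjusted p = 0.0614). None of 11 genes of xenobiotic receptors and regulators was called, and there the smallest p belonged to Keap1, the repressor of Nrf2 (1.14-fold, adjusted p = 0.128). This holds for the brightest probe set of each gene: a dimmer one of Mafg, a small Maf partner of Nrf2, passed at 1.21-fold (adjusted p = 0.0477), and the brighter one of Mafg did not (1.06-fold, 0.661). The medians of these lists were 0.07 and 0.01. At 64.1 mg/kg, Mgst2 was the 1 gene called among the 52 measured in the 6 lists.

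**Figure D4:**
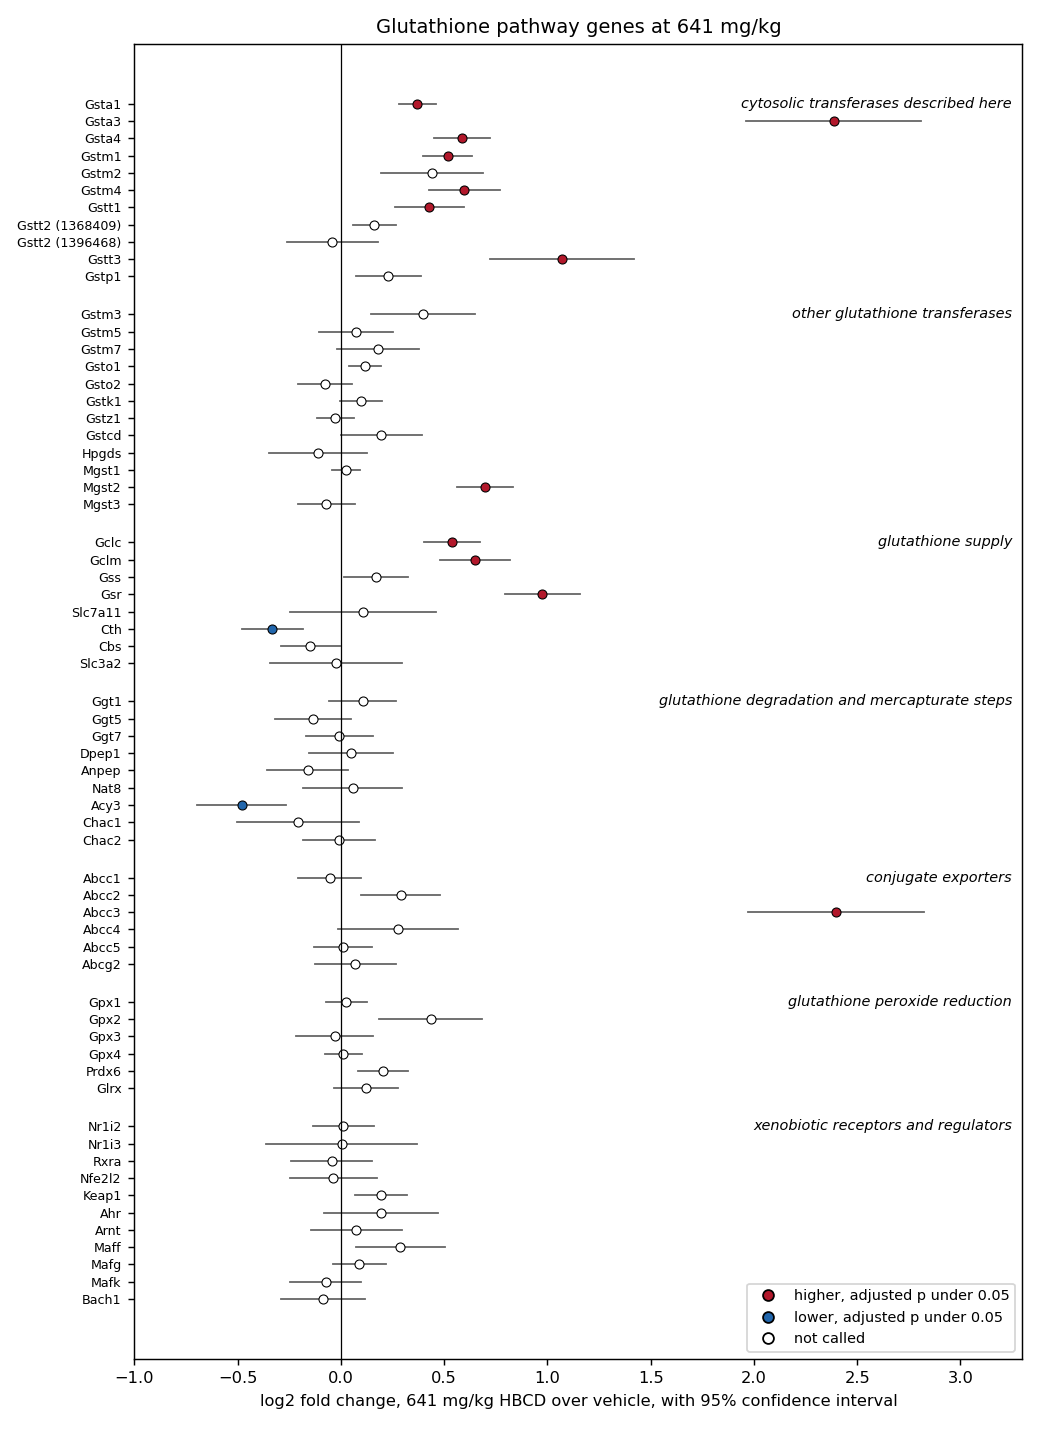
Log2 fold change at 641 mg/kg HBCD over vehicle (horizontal axis) for the 11 member probe sets and 52 genes of 6 lists of glutathione and xenobiotic handling, each gene by its brightest probe set, with 95% confidence intervals. Red marks genes called higher, blue genes called lower and white those not called. Abcc3, at 2.40, lies beside Gsta3, at 2.39.

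The genes whose levels followed Gsta3 most closely over the 36 arrays were Abcc3 (Pearson r = 0.928, Spearman rho = 0.799), Aldh1a1, which oxidises retinaldehyde (0.924 and 0.846), Cryl1, an enzyme of the uronate pathway (0.922 and 0.808), Ces2c, a carboxylesterase (0.909 and 0.799), and Pir, an iron-binding nuclear protein (0.902 and 0.736). These correlations are a description, since the points share arrays and dose groups. With the group means removed, Pearson's r was 0.701, 0.600, 0.541, 0.331 and 0.640 in the same order. At 641 mg/kg these genes were 5.26-fold, 2.48-fold, 2.50-fold, 4.41-fold and 1.84-fold their vehicle levels, all called by limma. Over all probe sets, 1.13% were called higher. The genes were picked for following Gsta3 over these same arrays, the 641 mg/kg group included, so their calls are not a separate result.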

How the data were processed

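Liver RNA was labelled with a 3′ IVT kit and hybridised to Affymetrix arrays. The authors deposited log2 expression values per probe set, made with RMA and affy according to the submitters' notes, with versions and settings not given in the sources used here. RMA subtracts background, quantile normalises and summarises the probes. Of 31099 probe sets, 57 controls were left out. In the platform annotation, 20826 probe sets had 1 symbol, 436 several and 9780 none, and 20758 symbols matched the RefSeq table by gene ID.

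limma 3.58.1 in R 4.3.3 fitted the 36 arrays with group as the only factor, two-sided, with Benjamini-Hochberg adjustment over 31042 probe sets and calls at an adjusted p under 0.05. The design text names R/maanova, which was not used. The fit was tested on simulated data. Exact permutation tests used scipy 1.17.1.

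Members and gene lists were chosen with earlier results of these data known. Named genes were all members, from each list up to 3 called genes of smallest p (or the gene of smallest p), and the 5 genes most correlated with Gsta3. Cth, Mafg, Gstp3, Gstm3, Gstm5, Gstm7, the Gsta5 and Gsta2 probe set and the markers printed were named outside this rule, after their values were seen. A gene of several probe sets was represented by the one of highest mean. Alternatives covered the replicate block, array centring, repeated quantile normalisation, a filter on dim probe sets, moderation, array weights, the groups fitted, joint adjustment, 1 value per gene and leaving out single arrays. The labels do not say whether replicate numbers pair the samples, and the main fit did not treat them as pairs.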

Additional observations from a re-analysis of the deposited data

Results flagged for a closer look

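A sample counted as far from its group when its gap to the nearest other array, divided by the range of the 6 arrays, exceeded Dixon's critical value of 0.625. Over 66 groups (11 probe sets by 6 doses) this marked 8, and chance marks about 1 in 20 groups. Gstm1 had a high value of 12.94 in vehicle replicate 1 and a low value of 12.82 in 64.1 mg/kg replicate 3, the array that was also low for Gsta4 (10.79). Gstt1 was marked in 3 groups, high in 0.06 mg/kg replicate 6 (9.59) and low in 0.641 mg/kg replicate 3 (9.133) and 641 mg/kg replicate 4 (9.443). Gstt3 was high in 6.41 mg/kg replicate 1 (10.33), and Gstp1 was high in 64.1 mg/kg replicate 2 (8.785).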

How the results depend on the processing

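The 7 calls at 641 mg/kg were made under every alternative run, with a highest adjusted p of 0.00965 (Gstt1), and 7 to 9 members were called there (7 to 8 with single arrays left out). Gstm2 at 641 mg/kg was past the threshold with the replicate block (adjusted p = 0.0346), array centring (0.041), the dim filter (0.0224), array weights (0.0403), a fit of the dose group and vehicle alone (0.0249) and 1 value per gene (0.0354). Gstt2 probe set 1368409 was past it with the dim filter only, at 641 mg/kg (0.0338) and for the slope (0.0319). At 64.1 mg/kg the count of members called was 0 as reported, 2 with the dim filter (11258 probe sets tested) and with 1 value per gene, 1 with a variance trend and robust moderation, 1 with array weights, 1 with the 5 doses adjusted together, and 0 to 2 with single arrays left out; the members concerned were Gsta3, Gstm1 or both. At the 3 lowest doses it was 0 throughout. At 641 against 64.1 mg/kg it was 2 to 4, for the slope 8 in each case and for the F test 7 to 8 with single arrays left out, and the slope count was 1 without the 641 mg/kg group. Genes called in the 6 lists at 641 mg/kg were 7 as reported, 11 with the dim filter and 7 to 10 with single arrays left out. At 64.1 mg/kg they were 1, or 0 with the dose group and vehicle fitted alone, and 1 with any single array left out. Over all probe sets the calls at 641 mg/kg were 352 higher and 159 lower, against 225 to 763 in all across settings and 335 without 641 mg/kg replicate 2; at 64.1 mg/kg they were 13, against 5 to 28, and 8 without vehicle replicate 3 or 64.1 mg/kg replicate 4. With class means the differences in response were 0.595 for alpha minus mu, 0.71 for alpha minus theta, 0.8857 for alpha minus pi, 0.115 for mu minus theta and 0.1758 for theta minus pi. With single arrays left out, Gsta1 minus Gstm1 ranged from -0.1956 to -0.1117, Gsta1 minus Gstt2 from 0.1875 to 0.2372, Gsta1 minus Gstp1 from 0.1002 to 0.1907, Gstm1 minus Gstt2 from 0.3165 to 0.386, Gstm1 minus Gstp1 from 0.2596 to 0.3403 and Gstt2 minus Gstp1 from -0.09416 to -0.02028. The signs of alpha minus mu and theta minus pi are opposite to those of the single probe sets (-0.147 and -0.0668). Signs also turned for 4 values that were not called: Gstt2 at 64.1 mg/kg with 1 value per gene (-0.0185), the Gstp1 slope without the 641 mg/kg group (-0.00476), and Gstp1 at 64.1 mg/kg without vehicle replicate 1 (0.0255) or 64.1 mg/kg replicate 5 (0.00213), within a range of -0.0575 to 0.0255 over single arrays left out. The causes were not tested. Replicate numbers are shared between groups, and the labels do not say whether they pair the samples. In deviations from group means, 14 of 90 same-number pairs correlated above 0.1 (range -0.252 to 0.321). Their median was 0.025, against -0.002 for pairs with other numbers, and 6 of 36 arrays correlated best with their own number. This check showed little sign of pairing but could not settle it. With the replicate block, 8 members were called at 641 mg/kg, 0 at 64.1 mg/kg and 4 between these doses. No detection calls were at hand, so dim probe sets could not be told from background.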

Other observations

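Within the vehicle group, replicate 1 was the highest array for 8 of the 11 member probe sets, while it was the highest for 18.4% of all probe sets. The highest array of its group was also often the same one at 0.06 mg/kg (replicate 6, in 6 of 11, against 16.9% of all probe sets). The same held at 6.41 mg/kg (replicate 1, in 6 of 11, against 18.3%). At 641 mg/kg, replicate 4 was the lowest array for 6 of 11 members, against 13.4% of all probe sets.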
